A study of Mus musculus with 8 samples.

Results

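The Cyp4a genes encode the cytochrome P450 enzymes that hydroxylate fatty acids at their terminal, omega carbon. Here 6 of them, Cyp4a10, Cyp4a12a, Cyp4a12b, Cyp4a14, Cyp4a31 and Cyp4a32, were followed in mouse liver. They were taken by gene symbol from a table of 24940 genes, and all 6 were among the 12340 genes with enough counts to be tested. RNA-seq was done on 4 Fxr KO livers (livers 1 to 4) and 4 Bcl6 LKO Fxr KO livers (livers 5 to 8), so that loss of Bcl6 in hepatocytes was compared on a background that lacked the bile acid receptor FXR in both groups. Fxr KO animals had the genotype Bcl6(fl/fl), FXR(homo), and Bcl6 LKO Fxr KO animals carried Alb-Cre in addition. All were C57BL/6, and the study describes the animals of this comparison as males. Their age, and whether these livers came from fed or briefly fasted animals, are not given in the sources used here.

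The albumin promoter drives Cre in hepatocytes, so Bcl6 in other liver cells should be left in place, while Fxr is missing in the whole body of every animal. There was no liver with intact Fxr, so whether these differences depend on the loss of Fxr cannot be told. Counts assigned to genes ranged from 7586241 to 11839503 per liver. Bcl6 itself, the repressor that was targeted, gave 541, 522, 197 and 588 counts in livers 1 to 4 and 118, 38, 57 and 85 in livers 5 to 8. Its level was 49.6 ± 19.4 counts per 1000000 assigned counts (CPM) in Fxr KO livers and 7.44 ± 3.24 in the Bcl6 LKO Fxr KO group (mean ± SD, n = 4 each), a log2 fold change of -2.72 with an edgeR adjusted p of 0.00123, and the groups did not overlap. Nr1h4, which encodes FXR, still gave counts in every liver, 454 to 662 in Fxr KO and 325 to 530 in Bcl6 LKO Fxr KO livers. Its level was 59.96 ± 2.46 CPM in the first group and 43.5 ± 3.69 CPM in the second (SD, n = 4), without overlap (log2 -0.46, edgeR adjusted p = 0.00497). Its deleted part is not given in the sources used here, so these totals do not check the Fxr allele.

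Omega-hydroxylation is the first step of a side route of fatty acid breakdown. Alcohol and aldehyde dehydrogenases then turn the product into a dicarboxylic acid, which is shortened in peroxisomes. CYP4A enzymes also make 20-HETE, a vasoactive product of arachidonic acid. In mouse liver Cyp4a10 and Cyp4a14 are classical targets of PPAR alpha, the nuclear receptor that responds to fatty acids and fasting, whereas Cyp4a12a is the male-type member, under androgen and growth hormone control. Cyp4a31 and Cyp4a32 are close relatives of Cyp4a10.

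The 6 genes lie within 323 kb of chromosome 4 (mm10), and their sequences fall into 3 kinds. Coding sequences were taken from the GENCODE M21 transcripts on GRCm38, the assembly that mm10 names. A stretch of 60 coding bases around the heme-binding cysteine signature is shown because it separates those 3 kinds, with capitals at the 10 positions that differ among the members. It is spliced from exons 11 and 12, at chr4:115529487-115529518 and chr4:115532531-115532558 (+ strand) for Cyp4a10, at chr4:115328971-115329002 and chr4:115331834-115331861 (+) for Cyp4a12a, and at chr4:115489789-115489820 and chr4:115487284-115487311 (- strand) for Cyp4a14.
Cyp4a10, Cyp4a31 and Cyp4a32: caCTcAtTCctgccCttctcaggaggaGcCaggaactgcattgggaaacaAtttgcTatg
Cyp4a12a and Cyp4a12b: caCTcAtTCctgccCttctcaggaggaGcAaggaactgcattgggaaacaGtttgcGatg
Cyp4a14: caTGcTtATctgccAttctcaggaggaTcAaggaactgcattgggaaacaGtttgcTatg
The same kinds show over the whole coding sequence. Cyp4a12a and Cyp4a12b were 98.5% identical, with 23 differing bases of 1527. Cyp4a10 was 97.2% identical to Cyp4a32 and 96.6% identical to Cyp4a31. Cyp4a14 reached no more than 76.5% identity with any other member, and it is also the member on the opposite strand.

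This likeness bears on the counts, because a read that fits more than 1 place in the genome was discarded by the authors. Of the 100-base windows of the Cyp4a12a transcript, 35.8% occur letter for letter in Cyp4a12b, and 36.2% of those of Cyp4a12b occur in Cyp4a12a. For Cyp4a32, Cyp4a10 and Cyp4a31 the shares found in another member were 20.1%, 12.7% and 8.22%. For Cyp4a14 no window was shared. The counts of the first 5 therefore understate their levels and could be split wrongly between near copies. The stretches below are the 60 coding bases, within a single exon, at which the near copies differ most, and they show how few bases tell them apart. Capitals mark the differing positions. For the Cyp4a12 genes these are 4 positions, at chr4:115326629-115326688 and chr4:115432882-115432941, both on the + strand and starting at codon 211.
Cyp4a12a: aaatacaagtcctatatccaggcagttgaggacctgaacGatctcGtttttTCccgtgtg
Cyp4a12b: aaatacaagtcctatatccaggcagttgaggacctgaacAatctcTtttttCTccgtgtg
For the other near copies they are 9 positions, starting at codon 68, at chr4:115519642-115519701 for Cyp4a10, chr4:115565022-115565081 for Cyp4a31 and chr4:115602272-115602331 for Cyp4a32, all on the + strand. These are the positions at which not all of those genes are alike. At most of them Cyp4a10 and Cyp4a31 have the same base and only Cyp4a32 differs.
Cyp4a10: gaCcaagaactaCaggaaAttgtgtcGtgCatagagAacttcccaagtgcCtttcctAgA
Cyp4a31: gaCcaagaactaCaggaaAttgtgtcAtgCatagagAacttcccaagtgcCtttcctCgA
Cyp4a32: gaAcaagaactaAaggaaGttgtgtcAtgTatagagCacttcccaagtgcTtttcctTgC

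The members differed in direction and size. The male-type genes Cyp4a12a and Cyp4a12b fell to near 0 in Bcl6 LKO Fxr KO livers, Cyp4a14 and Cyp4a32 fell to about 0.5 times their Fxr KO level, Cyp4a10 had the same mean in both groups, and Cyp4a31 had a higher mean that did not pass the test. Thus 4 of 6 members were called lower and 0 higher at an adjusted p under 0.05 (edgeR quasi-likelihood test). Among all 12340 tested genes, 13.5% were called lower and 16.2% higher. In 3 members all 4 Bcl6 LKO Fxr KO livers lay below all 4 Fxr KO livers, as they did for 15.2% of tested genes, and in 1 member, Cyp4a31, they lay above, as for 16.1%. The median log2 fold change was -0.98 over the members, also with Cyp4a12b at the bound given with its values, and 0.01 over all tested genes. RNA was taken from whole liver, so fewer cells that express a gene and less RNA per cell cannot be told apart.

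**Figure D1:**
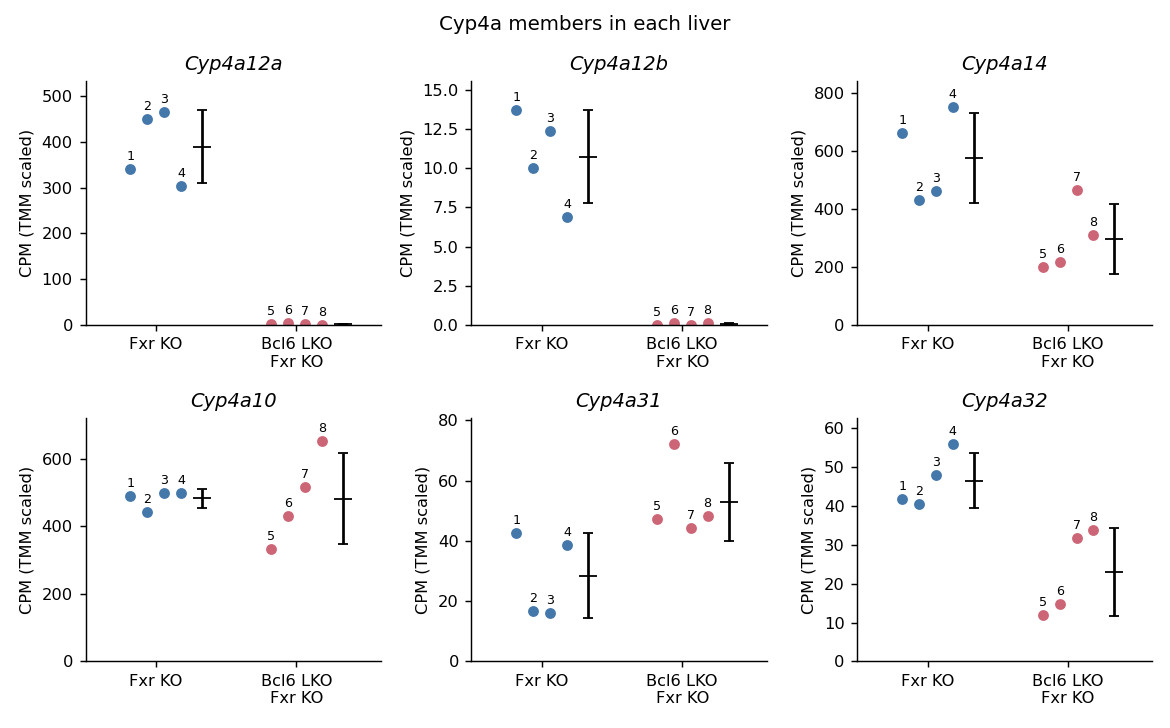
Level of each Cyp4a member in CPM, scaled by the TMM method, in 4 Fxr KO livers (blue, numbered 1 to 4) and 4 Bcl6 LKO Fxr KO livers (red, 5 to 8), with the mean and SD in black. Each panel has its own axis from 0. Cyp4a12a and Cyp4a12b lie near 0 in livers 5 to 8, and Cyp4a10 and Cyp4a14 overlap between the groups.

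Cyp4a12a (NM_177406) spans chr4:115299046-115332815 on the + strand in 12 exons. It is known as the main 20-HETE synthase of the male mouse. It gave 3280, 3607, 4327 and 3198 counts in Fxr KO livers and 12, 24, 11 and 3 in Bcl6 LKO Fxr KO livers. The groups were far apart, as the lowest Fxr KO liver was 104 times the highest Bcl6 LKO Fxr KO liver in CPM. Its level went from 390 ± 80.3 CPM to 1.37 ± 1.11 CPM (SD, n = 4). The log2 fold change was -8.22 with an SE of 0.43 and an adjusted p of 6.79e-07 (edgeR), the 18th largest fall of all tested genes. The transcript remained detectable, with 3 counts or more in every Bcl6 LKO Fxr KO liver, and liver 6 held the most.

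Cyp4a12b (NM_172306; chr4:115411624-115439034, + strand, 12 exons) was much the weaker copy in Fxr KO livers and was close to undetected in the others. Its counts were 132, 80, 115 and 73 in livers 1 to 4 and 0, 1, 0 and 1 in livers 5 to 8. Its level in Fxr KO livers was 10.8 ± 2.99 CPM (SD, n = 4), and edgeR gave an adjusted p of 1.75e-07 for its fall. As no Bcl6 LKO Fxr KO liver held more than 1 count, its fold is given as a bound: against a floor of 3 counts per liver, which is 0.308 CPM on average in that group, it was at least 34.9-fold lower. A gene on the opposite strand, Gm12837, overlaps its introns but no exon. With the counts of both copies summed, which takes out any wrong split between them, the log2 fold change was -8.21 (SE 0.41, edgeR adjusted p = 3.78e-07).

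Whether 1 copy fell further than the other could not be settled. The log2 ratio of Cyp4a12a to Cyp4a12b counts was 5.20 ± 0.39 in Fxr KO livers and 3.60 ± 1.61 in the Bcl6 LKO Fxr KO group (SD, n = 4), and an exact permutation test gave p = 0.0571 (two-sided, 70 orderings, Benjamini-Hochberg adjusted over 4 such tests 0.0571). Its value in the second group rests on 0 or 1 count of Cyp4a12b.

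Cyp4a14 (NM_007822; chr4:115486200-115496141, - strand, 12 exons) is among the most strongly induced targets of PPAR alpha in mouse liver. Its counts were 6349, 3432, 4294 and 7920 in Fxr KO livers and 1968, 1771, 4752 and 3408 in Bcl6 LKO Fxr KO livers. The groups overlapped through liver 7, at 463 CPM, which lay above livers 2 and 3, at 429 and 461 CPM. The mean fell from 575 ± 155 to 296 ± 121 CPM (SD, n = 4), a log2 fold change of -0.96 with an SE of 0.28 and an edgeR adjusted p of 0.0295. That call rested on single livers: leaving out any of livers 1, 4, 5, 6 and 8 raised the adjusted p to between 0.0576 and 0.0994, and dropping the filter on low counts raised it to 0.0677.

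Cyp4a10 (NM_010011; chr4:115518287-115533649, + strand, 13 exons) is the other classical PPAR alpha target and a lauric acid hydroxylase. It gave 4709, 3524, 4644 and 5268 counts in Fxr KO livers and 3296, 3532, 5288 and 7172 in Bcl6 LKO Fxr KO livers. Its mean was 482 CPM in both groups, with an SD of 28 CPM in the first and 136 CPM in the second (n = 4 each). The Bcl6 LKO Fxr KO livers thus lay on either side of the Fxr KO range, from 332 CPM in liver 5 to 651 CPM in liver 8. The log2 fold change was 0.00 (SE 0.17, edgeR adjusted p = 0.998), and a 95% interval with 6 residual degrees of freedom ran from 0.745 to 1.34 fold. The fall estimated for Cyp4a14 was outside that interval, but the interval of Cyp4a14 itself, from 0.319 to 0.834 fold, overlapped it. Scaling by total counts alone moved the value to -0.16 (adjusted p = 0.487), and leaving out liver 5 moved it to 0.14.

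Cyp4a14 was lower relative to Cyp4a10 in these Bcl6 LKO Fxr KO livers, by a narrow margin. The log2 ratio of Cyp4a14 to Cyp4a10 counts, which does not depend on any scaling, was 0.43, -0.04, -0.11 and 0.59 in Fxr KO livers and -0.74, -0.996, -0.15 and -1.07 in Bcl6 LKO Fxr KO livers. The groups did not overlap, though liver 7 lay just below liver 3. The mean went from 0.22 ± 0.35 to -0.74 ± 0.42 (SD, n = 4), with an exact two-sided permutation p of 0.0286, the smallest that 70 orderings allow (adjusted over 4 tests 0.0381). With any Fxr KO liver left out, the exact p was 0.0571. The ratio of Cyp4a14 to Cyp4a12a counts moved the other way, from 0.54 ± 0.69 to 8.02 ± 1.63 on the log2 scale (SD, n = 4, exact permutation p = 0.0286, adjusted 0.0381), so the fall of Cyp4a12a was the larger. That ratio and the Cyp4a12 share are among the 4 tests, and both restate the fall already seen in the Cyp4a12 counts. Their small p was therefore set in advance, and it lowers the adjusted value for Cyp4a14 and Cyp4a10. Whether those 2 genes changed unequally is therefore not settled by that adjusted value.

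Cyp4a32 (NM_001100181; chr4:115600938-115622366, + strand, 12 exons) fell by about as much as Cyp4a14. Its counts were 402, 324, 446 and 590 in livers 1 to 4 and 118, 121, 325 and 371 in livers 5 to 8. The groups did not overlap in CPM, although livers 7 and 8, at 31.7 and 33.7 CPM, lay nearer to the Fxr KO livers, at 40.5 to 55.8 CPM, than to livers 5 and 6, at 11.9 and 14.7 CPM. The level went from 46.5 ± 7 to 23.0 ± 11.3 CPM (SD, n = 4), a log2 fold change of -1.01 (SE 0.32, edgeR adjusted p = 0.0397). Leaving out any of livers 1, 2, 3, 4 and 6 raised the adjusted p to between 0.0546 and 0.0899, and dropping the filter raised it to 0.0875.

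Cyp4a31 (NM_201640; chr4:115563649-115579015, + strand, 12 exons) was the only member with a higher mean in Bcl6 LKO Fxr KO livers, and it did not pass the test. Its counts were 409, 133, 149 and 409 in livers 1 to 4 and 468, 593, 455 and 531 in livers 5 to 8. In CPM every Bcl6 LKO Fxr KO liver, from 44.3 to 72.0, lay above every Fxr KO liver, from 16.0 to 42.6, but livers 1 and 4 came close. The level was 28.5 ± 14.1 CPM in Fxr KO livers and 52.9 ± 12.8 CPM in the Bcl6 LKO Fxr KO group (SD, n = 4). The log2 fold change was 0.89 with an SE of 0.34 and an edgeR adjusted p of 0.0859. DESeq2, the tool named in the study's methods, gave an adjusted p of 0.0151, and edgeR without liver 1 gave 0.0294.

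Cyp4a31 and Cyp4a32 are 96.01% identical in coding sequence and had differences of opposite sign, of which that of Cyp4a32 alone passed the test. The log2 ratio of Cyp4a31 to Cyp4a32 counts was 0.02, -1.28, -1.58 and -0.53 in livers 1 to 4 and 1.98, 2.29, 0.48 and 0.52 in livers 5 to 8. Every Bcl6 LKO Fxr KO liver had more counts of Cyp4a31, and 3 of 4 Fxr KO livers had more of Cyp4a32. This ratio was chosen after its values were seen and carries no test. With the counts of Cyp4a10, Cyp4a31 and Cyp4a32 summed as near copies, the log2 fold change was 0.00 (SE 0.17, edgeR adjusted p = 0.996), as Cyp4a10 made up most of the sum.

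**Figure D2:**
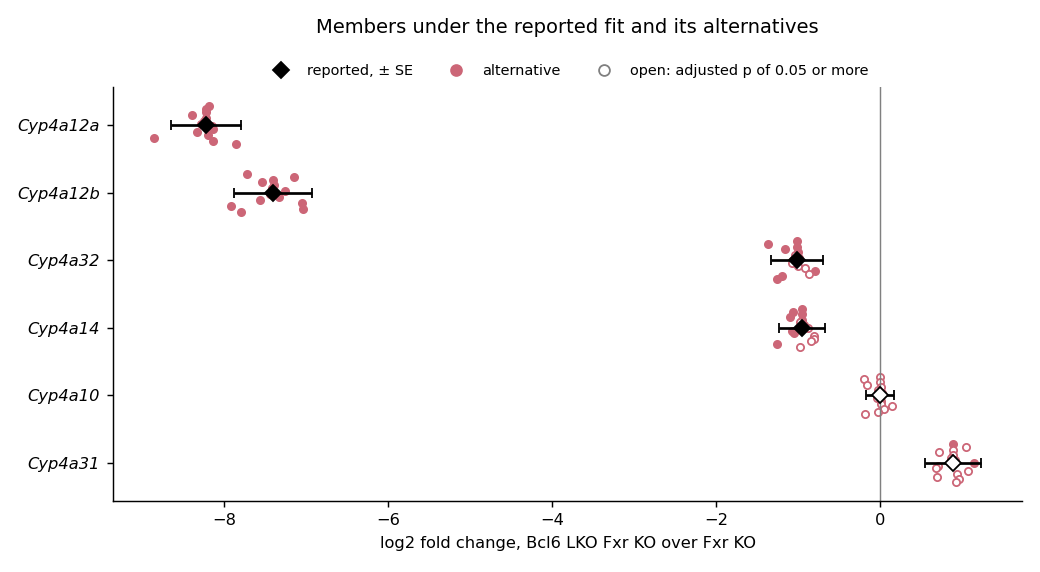
Log2 fold change of each member, Bcl6 LKO Fxr KO over Fxr KO. Black diamonds give the reported edgeR value with its SE, and circles give the other tools, scalings, filters and sets of 7 livers, with open symbols where the adjusted p was 0.05 or more. Every value of Cyp4a12a and Cyp4a12b lies below -7 and is called, while circles of both kinds are seen for Cyp4a14, Cyp4a32 and Cyp4a31.

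Compared per kilobase of transcript, the family pool was smaller, and Cyp4a10 made up more of it. The summed level of the 6 members was 690, 605, 657 and 716 CPM per kilobase in Fxr KO livers and 266, 331, 470 and 476 in Bcl6 LKO Fxr KO livers, a mean that was 42.1% lower, and the groups did not overlap. Without the Cyp4a12 genes the sums were 413 to 588 in Fxr KO livers and 265 to 476 in Bcl6 LKO Fxr KO livers, which overlapped. These sums run over members chosen with earlier results known and carry no test.

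In Fxr KO livers 3 genes shared the pool per kilobase. Cyp4a10 held 33.6 to 36.7% of it, Cyp4a14 28.3 to 42.2% and Cyp4a12a 17.5 to 30.9%. By these values Cyp4a14 was the higher in livers 1 and 4 and Cyp4a10 in livers 2 and 3. Reads from shared stretches were discarded, and 12.7% of the windows of Cyp4a10 and 35.8% of those of Cyp4a12a are shared. For Cyp4a14 none is, so Cyp4a10 and Cyp4a12a are understated beside it. The order of Cyp4a14 and Cyp4a10 in Fxr KO livers is therefore uncertain. In Bcl6 LKO Fxr KO livers Cyp4a10 led in all 4, with 52.9 to 66%, ahead of Cyp4a14 with 26.1 to 39.7%. Cyp4a31 held 0.977 to 2.47% of the pool in Fxr KO livers and 3.78 to 8.70% in the others, and Cyp4a32 held 2.33 to 4.1% throughout.

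The share of all Cyp4a counts that came from the Cyp4a12 genes was 22.3%, 33.2%, 31.8% and 18.7% in livers 1 to 4 and 0.205%, 0.414%, 0.102% and 0.0348% in livers 5 to 8. The mean was 26.5 ± 7.09% against 0.189 ± 0.166% (SD, n = 4), with an exact two-sided permutation p of 0.0286, the smallest that 70 orderings allow (adjusted over 4 tests 0.0381). That p was set by the fall of the Cyp4a12 genes described above and is no separate result. Livers 2 and 3, with the highest shares, were the Fxr KO livers with the lowest Cyp4a14 levels.

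**Figure D3:**
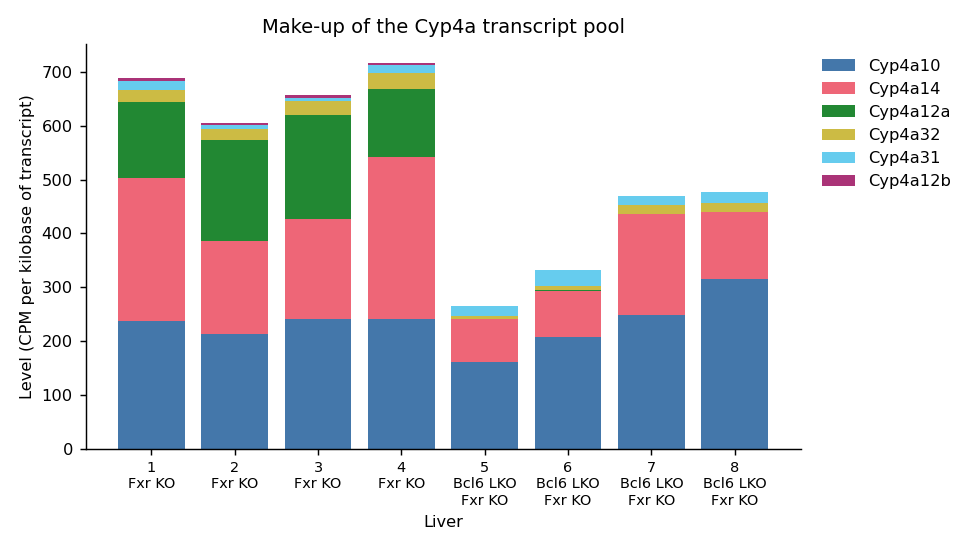
Level of each Cyp4a member in each liver, in CPM per kilobase of transcript, stacked to the family sum. The Cyp4a12a segment is present in livers 1 to 4 and not visible in livers 5 to 8, and the Cyp4a10 segment makes up 52.9 to 66% of the bars of livers 5 to 8.

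Within each genotype some members went up and down together from liver to liver. After each genotype's mean log2 CPM was subtracted, Cyp4a10 and Cyp4a32 had a correlation of 0.92 over the 8 livers, Cyp4a14 and Cyp4a32 one of 0.78, and Cyp4a10 and Cyp4a14 one of 0.61. Cyp4a31 had lower values, of -0.10 with Cyp4a32, 0.02 with Cyp4a10 and 0.33 with Cyp4a14. The last value pools unlike patterns. Cyp4a31 and Cyp4a14 were both above their mean in livers 1 and 4 and both below it in livers 2 and 3. In livers 6, 7 and 8 they lay on opposite sides of it. Cyp4a12a had values of -0.67 with Cyp4a10, -0.68 with Cyp4a32, -0.45 with Cyp4a14 and 0.04 with Cyp4a31. In livers 5 to 8 these follow Cyp4a12a counts of 24 or fewer. All the values are descriptive, and the points share libraries and depth.

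The genes most like each member by this measure were sought among 9060 others. For Cyp4a10 they were Hspg2 (0.98), Rab8a (0.98), Rps24 (0.96), Dbp (0.96) and Ndufaf3 (0.95). For Cyp4a14 they were Cpeb1 (0.97), Nrp2 (0.96), Zfp512b (0.95), Scaf11 (0.93) and Hsd17b11 (0.93). For Cyp4a32 they were Adora1 (0.99), Hdc (0.97), Cdc123 (0.96), Supt3 (0.95) and Nceh1 (0.95). For Cyp4a31 they were Orm2 (0.98), Col5a2 (0.98), G6pdx (0.96), Angptl8 (0.96) and Aig1 (0.95). For Cyp4a12a the values reached 0.99 with Fubp1, 0.98 with Nid2, Acly, Ankrd46 and Rpe, and for Cyp4a12b 0.97 with H2-K1, 0.96 with Hnrnpa0 and Hpn, and 0.95 with Cdk16 and Cblc. In livers 5 to 8 these last values follow counts of 24 or fewer. They are given as a description, with no test.

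**Figure D4:**
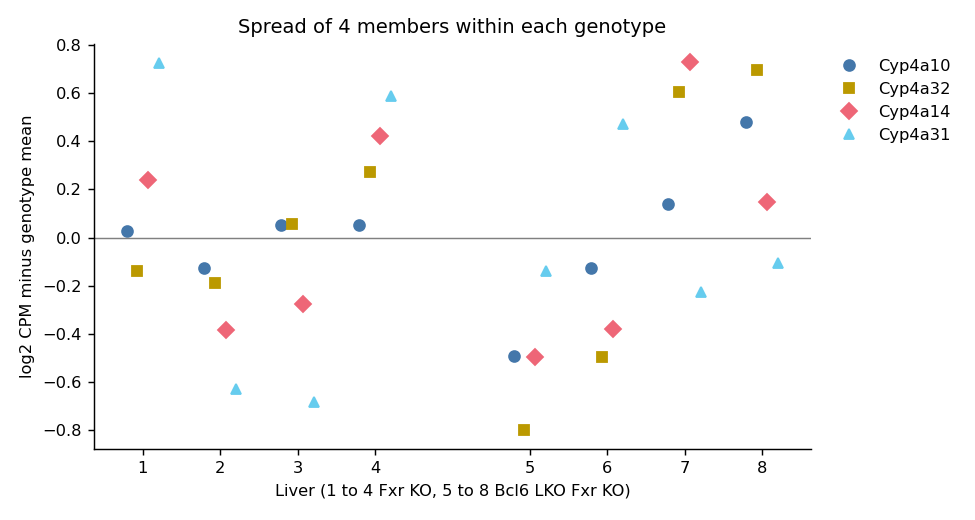
Log2 CPM of Cyp4a10, Cyp4a32, Cyp4a14 and Cyp4a31 in each liver after subtraction of the genotype mean, with livers 1 to 4 Fxr KO and livers 5 to 8 Bcl6 LKO Fxr KO. Cyp4a10, Cyp4a32 and Cyp4a14 are all below 0 in livers 5 and 6 and all above 0 in livers 7 and 8, whereas Cyp4a31 is at its highest in livers 1, 4 and 6.

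Genes around the cluster differed about as often as genes in general. The table holds 27 others within 500 kb of it, of which 12 could be tested. Only Faah, which breaks down fatty acid amides, was lower (log2 fold change -0.44, edgeR adjusted p = 0.00685), and only Atpaf1, an ATP synthase assembly factor, was higher (1.20, adjusted p = 0.00566). Cyp4b1, which lies next to Cyp4a32, did not pass the test (0.22, adjusted p = 0.383). Inside or beside the cluster, Cyp4a29 gave 1 count in all, and Cyp4a30b and Cyp4x1 gave 0 in every liver. The median over the 12 tested neighbours was 0.02, and 1 lower and 1 higher of 12 is near the 13.5% and 16.2% of all tested genes.

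Other Cyp4 genes were lower in part. Of 17 such genes, 8 had enough counts to be tested, and 4 of these were lower, 2 were higher and the median log2 change was -0.40. Over all tested genes the shares were 13.5% lower and 16.2% higher. Cyp4f14, which hydroxylates leukotriene B4, went from 359 ± 8.88 to 178 ± 36.3 CPM (SD, n = 4; -1.01, edgeR adjusted p = 0.000144), a change close in size to those of Cyp4a14 and Cyp4a32 and with less spread. Cyp4f15 (-0.96), Cyp4v3 (-0.68) and Cyp4f13 (-0.56) were also lower. Cyp4f18 (1.32) and Cyp4f16 (0.92) were higher from low levels, and in both the groups overlapped.

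The steps on either side of omega-hydroxylation were described with gene lists, each read beside the 13.5% of tested genes that were lower and the 16.2% that were higher. Those shares are from TMM scaling, and none is given here for scaling by total counts. Of 12 genes for redox partners and for the alcohol and aldehyde dehydrogenases, 3 were lower and 2 higher, with a median of -0.19, and under total-count scaling 6 were lower and 1 higher. Por, which passes electrons to the microsomal P450 enzymes, had a mean of 460 ± 127 CPM in Fxr KO livers and 526 ± 161 CPM in the Bcl6 LKO Fxr KO group (SD, n = 4) and did not pass the test (edgeR adjusted p = 0.567). Adh4, an alcohol dehydrogenase, fell from 103 ± 14.2 to 42.6 ± 2.45 CPM (log2 -1.28, adjusted p = 5.91e-06). Cyb5b (-0.35) and Adh7 (-0.48) were also lower. Cyb5r3, a cytochrome b5 reductase, was higher (0.71), as was Adh1 (0.40). The summed level of this list was 9870 to 11354 CPM in Fxr KO livers and 9289 to 12879 CPM in Bcl6 LKO Fxr KO livers, and the ranges overlapped.

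Downstream, of 26 tested genes for peroxisomal handling of dicarboxylic and long-chain acids, 14 were lower and 6 higher, with a median of -0.42. Slc27a2, a very-long-chain acyl-CoA synthetase, fell from 1571 ± 69.7 to 622 ± 48.6 CPM (SD, n = 4; log2 -1.34, edgeR adjusted p = 2.9e-06). Scp2, which holds the peroxisomal thiolase SCPx, was also lower (-1.45). Ehhadh, the bifunctional enzyme that acts on dicarboxylic acids, did not pass the test (0.27, adjusted p = 0.190). Among the 6 that were higher were Abcd2 (2.31), a peroxisomal transporter, Crat (1.19), carnitine acetyltransferase, and Acot6 (2.07), an acyl-CoA thioesterase. The summed level of the list was 11397 to 13181 CPM in Fxr KO livers and 6090 to 7383 CPM in Bcl6 LKO Fxr KO livers, without overlap.

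The PPAR alpha target list held no Cyp4a gene. Of its 30 tested genes, 12 were lower, 4 higher and 14 did not pass the test, with a median of -0.34. Under total-count scaling 17 were lower and 4 higher. Slc25a42 (-0.83), a mitochondrial coenzyme A carrier, Acaa2 (-0.74) and Acadm (-0.55), both of mitochondrial beta-oxidation, had the smallest adjusted p among those that fell, and Cpt1a, which controls fatty acid entry into mitochondria, fell from 544 ± 121 to 294 ± 43.6 CPM (SD, n = 4; log2 -0.89, edgeR adjusted p = 0.00183). The higher genes with the smallest adjusted p were Ucp2 (1.95), Acot2 (1.89) and Fgf21, the last from a mean of 0.261 to one of 2.24 CPM.

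Of 16 genes for the receptor, its partners and cofactors, 4 were lower and 1 higher, with a median of -0.40. Ppara had 205, 264, 269 and 296 CPM in livers 1 to 4 and 100, 132, 177 and 112 CPM in livers 5 to 8, which did not overlap (log2 -0.99, SE 0.17, edgeR adjusted p = 0.00104). Rxra, its obligate partner, fell by 0.60 and the corepressor Ncor1 by 0.48 on the log2 scale, while Ppard rose by 0.65. Scaling by total counts alone shifts all log2 fold changes by a median of -0.16, and Alb was 44554 ± 4422 CPM in Fxr KO livers and 135488 ± 8122 CPM in the Bcl6 LKO Fxr KO group (SD, n = 4). Under that scaling 9 of the 16 were lower, a count with no share of all tested genes given beside it.

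**Figure D5:**
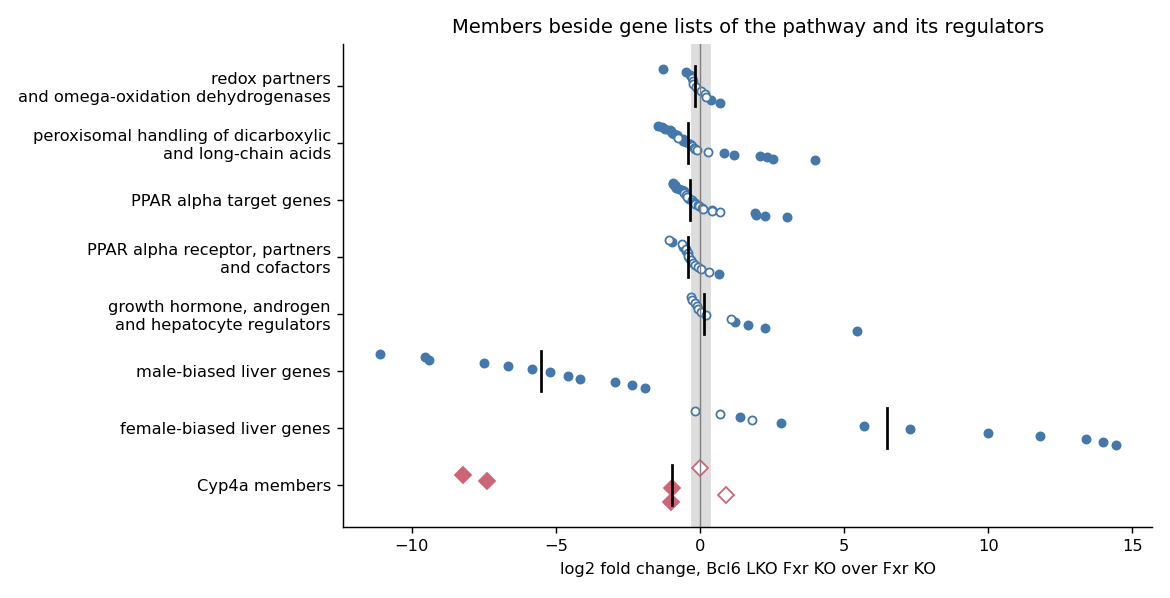
Log2 fold change, Bcl6 LKO Fxr KO over Fxr KO, of every tested gene of 7 lists and of the Cyp4a members (red diamonds), with filled symbols at an adjusted p under 0.05, a black bar at each median, and a grey band from the lower to the upper quartile of all tested genes (-0.28 to 0.36). Cyp4a12a and Cyp4a12b lie among the male-biased genes, and the other members within the spread of the PPAR alpha and peroxisome lists. The male- and female-biased values include genes near 0 in either group, whose fitted folds are not bounds.

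The fall of the Cyp4a12 genes was set beside other sex-biased liver genes. Of 12 male-biased genes, a list without Cyp4a members, 12 were lower, and of 12 female-biased genes 9 were higher and 0 lower. Among all tested genes 13.5% were lower and 16.2% higher. Both lists were written with earlier results of these data known, so the counts are a description and no test. Hsd3b5, a male-type steroid enzyme, went from 251 ± 66.5 to 0.109 ± 0.10 CPM, Slco1a1, a male-type transporter, from 261 ± 45.8 to 1.48 ± 0.683 CPM, and Nudt7, a peroxisomal coenzyme A hydrolase, from 943 ± 211 to 39.7 ± 3.73 CPM (SD, n = 4). The summed male-biased level was 7343 to 14852 CPM in Fxr KO livers and 281 to 956 CPM in Bcl6 LKO Fxr KO livers. A1bg, Sult2a1 and Cyp3a41a, of the female-biased list, went from means of 0.124, 0.0473 and 0.0785 CPM to 3205, 714 and 332 CPM.

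Among 12 genes listed as growth hormone, androgen and hepatocyte regulators, 4 were higher and 0 lower, beside 16.2% and 13.5% of all tested genes. Cux2, a repressor typical of the female liver, went from 1.89 ± 2.08 to 87.3 ± 12.3 CPM (SD, n = 4; log2 5.45, edgeR adjusted p = 0.000242). Ghr, the growth hormone receptor, rose by 2.27, and Trim24 by 1.22. Stat5b, a mediator of growth hormone signalling, did not pass the test (-0.06, adjusted p = 0.798).

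Markers of liver zones differed in both directions, and stellate cell markers were higher more widely. The 10 pericentral genes summed to 12730 to 17255 CPM in Fxr KO livers and 4619 to 7813 CPM in Bcl6 LKO Fxr KO livers, with 1 called lower, Cyp2e1, and 2 higher. Without Cyp2e1 the other 9 summed to 3594 to 4128 and 2505 to 4298 CPM, which overlapped. The 10 periportal genes summed to 3208 to 5392 and 2007 to 2568 CPM, with 3 lower and 1 higher, and without Pck1 and Cyp2f2 to 729 to 922 and 863 to 1310 CPM, which also overlapped. Cyp2e1, Pck1 and Cyp2f2 were left out after their values were seen, and the zone genes that were higher were kept. Mean Aldh1b1, kept in the periportal sum, went from 86.8 to 405 CPM. Slc1a2 (221 to 708 CPM) and Rhbg (31.6 to 65.2 CPM) were kept in the pericentral sum. The overlap of these sums therefore does not show that the zones were otherwise alike. Of 10 hepatocyte markers 2 were higher and 2 lower, and their sum, most of it Alb, was 64775 to 75871 against 153575 to 176181 CPM, or 26537 to 29924 against 22640 to 29229 CPM without Alb. Under total-count scaling, for which no share of all tested genes is given here, 5 periportal genes, 4 hepatocyte markers and 1 cholangiocyte marker were lower. Stellate cell and fibroblast markers were higher in 7 of 10 and summed to 250 to 342 CPM in Fxr KO against 506 to 604 CPM in Bcl6 LKO Fxr KO livers. Macrophage markers were higher in 2 of 8, endothelial markers in 1 of 8 and cholangiocyte markers in 2 of 5 tested, none was lower under TMM scaling, and the summed ranges were 363 to 511 against 506 to 838, 159 to 226 against 206 to 277, and 58.4 to 85.3 against 92.3 to 157 CPM. Among all tested genes 13.5% were called lower and 16.2% higher. Counts of 1 to 3 in these short lists are therefore not read as changes of a zone or cell type. Of 8 markers of T and B cells none could be tested, with sums of 2.19 to 4.30 against 4.61 to 8.90 CPM. No marker of these lists that is in the table was at 0 in every liver of a group, and the part of cell makeup in the Cyp4a values was not tested.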

How the data were processed

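Liver mRNA was read as 100-base single-end reads from a stranded kit. Per the labels and the study's methods, the authors aligned reads to mm10 with STAR 2.5.2, kept those with 1 location and up to 4 mismatches, and counted reads over exons per gene with HOMER 4.10. The deposited values are raw counts, 1 RefSeq transcript per gene. The file header names no strand setting, so overlapping genes on opposite strands cannot be told apart.

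Groups came from the sample labels. Counts were tested with edgeR 4.0.16 (filterByExpr, TMM scaling, robust quasi-likelihood test, Benjamini-Hochberg adjustment over 12340 genes, threshold 0.05) in R 4.3.3. The SE is the log2 fold change divided by the square root of F. Nothing in the labels says that the libraries are from separate animals beyond the library numbers, so p-values measure the spread between these samples. In counts simulated for this comparison, on 12340 genes with 200 changed, edgeR recovered 87.5% of the changed genes and 6.42% of its calls were false. The simulation gave every gene the same dispersion and changed far fewer genes than were called here. These rates need not hold for the calls in these data. A floor of 3 counts was 0.272 to 0.375 CPM per liver, and covers counting error only. Ratios of counts had 0.5 added to each count and were tested, with the Cyp4a12 share, by exact permutation over livers. Alternatives were DESeq2 1.42.0 (the study's methods name DESeq2), limma 3.58.1 (voom with quality weights), other scalings and filters, and each liver left out.

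Named genes were the 6 members, Bcl6 and Nr1h4, other Cyp4 genes, neighbours within 500 kb, up to 3 genes per direction and list with the smallest adjusted p plus Ppara, Rxra, Por, Ehhadh and Cpt1a, and the 5 genes most alike in pattern (mean count of 50 or more, log2 of CPM plus 0.1). Stat5b, Alb, Cyp2e1 and the neighbouring Faah and Atpaf1 are named beside a count or scaling. Some listed genes are not reported here by name. The members and lists were chosen with earlier results of these data known.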

Additional observations from a re-analysis of the deposited data

Results flagged for a closer look

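In 31 groups of 4 livers (levels, shares and ratios of members) Dixon's test was applied to the highest and lowest value, and chance flags about 1 group in 20, or 1.55 here. It singled out 2. Cyp4a10 in Fxr KO liver 2, at 440 CPM, lay below the others, at 490 to 499 CPM, with a gap of 0.846 of the range. Cyp4a31 in Bcl6 LKO Fxr KO liver 6, at 72.0 CPM, lay above the others, at 44.3 to 48.2 CPM, with a gap of 0.859 of the range.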

How the results depend on the processing

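Cyp4a12a, Cyp4a12b and their sum stayed lower and called under all 14 alternatives that gave a value, from -8.85 to -7.85, -7.92 to -7.04 and -8.84 to -7.86. Asking for 10 counts in every liver removed both genes and left 2 members called lower. Without the filter on low counts 2 were called lower, as Cyp4a14 (-0.98) and Cyp4a32 (-1.04) lost their calls. With single livers left out, 2 to 4 were called lower and 0 to 1 higher, Cyp4a14 ranged from -1.25 to -0.80, Cyp4a32 from -1.25 to -0.80 and Cyp4a31 from 0.68 to 1.14. DESeq2 called 1 higher, Cyp4a31 (0.89). Cyp4a10, never called, changed sign without the 50 most counted genes in the scaling (0.0049), with the 10-count filter (0.0203) and over the sets of 7 livers (-0.18 to 0.14). The sum with its near copies, never called, changed sign under DESeq2 (-0.00095), voom (-0.17), RLE size factors (-0.00096), total counts (-0.16), no filter (-0.024) and over sets of 7 livers (-0.16 to 0.14). The ratio of Cyp4a14 to Cyp4a10 ranged from -1.15 to -0.84 over those sets, with exact p up to 0.0571, and the ratio of Cyp4a12a to Cyp4a12b from -1.94 to -0.80. Adding 5 counts moved the latter from -1.59 to -3.60 (exact permutation p = 0.0286), since it acts most on counts of 0 and 1. Under total counts 1 redox and dehydrogenase gene was higher and 6 lower. Also lower were 17 PPAR alpha target genes, 16 genes of the peroxisomal list and 9 PPAR alpha receptor and cofactor genes. So were 5 periportal genes, 4 hepatocyte markers and 1 cholangiocyte marker. No share of all tested genes called under total counts is given here. The cause of the other changes was not tested. No paired analysis was possible because the labels give the groups no shared replicate number and state no pairs. Library numbers that follow each other across the groups were not taken as pairs. Depth limits Cyp4a12b, at 0 or 1 count in Bcl6 LKO Fxr KO livers.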
